A study of Mus musculus with 6 samples.

Results

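The genes examined here encode the enzymes and transporters that carry glucose through glycolysis and the pentose phosphate pathway, together with kinases that set the direction of the flow. The 31 members were chosen by name, and each was represented by its brightest non-control probe among the array probes of that name. All 31 were well above background on each of the 5 arrays with scanner data, and they were 31 of 20256 genes or unnamed features tested. The samples were 3 cultures of macrophages from mice given c-Maf KO fetal liver cells and 3 from mice given WT fetal liver cells. The labels name the cells polarized M2-like BMM, with fetal liver and bone marrow cells as the cultured suspensions. Cultures of both genotypes received M-CSF at 10 ng/ml, added daily from day 4, and no other cytokine is named. RNA was measured on 1-colour Agilent mouse arrays.

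The design limits what a difference between the genotypes can be read as. The KO was carried by the donor fetal liver cells, which give rise to all blood lineages, and not by macrophages alone. The host mice, the donor strain, the age of the mice and the deleted stretch of the gene are not stated in the sources used here. Nor is it stated that the replicates of a genotype were taken from different mice. The p-values therefore measure only how far these samples differ from each other, and that spread may be technical. In bulk RNA of this kind, fewer cells of a type and less RNA per cell cannot be told apart.

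Glycolysis splits glucose into pyruvate in the cytosol and yields ATP without oxygen, and lactate dehydrogenase then turns pyruvate into lactate. The pentose phosphate pathway leaves glycolysis at glucose phosphate, and its oxidative arm makes the NADPH that macrophages use for the respiratory burst and for reductive synthesis. Macrophages exposed to bacterial products are known for high glycolysis under the transcription factor HIF-1, whereas those polarized by interleukin-4 are known for relying more on oxidative metabolism. c-Maf, encoded by Maf, is a basic leucine zipper factor of the macrophage lineage that is known for driving interleukin-10 production. The comparison asks whether its loss in M-CSF cultures came with a different RNA level of these metabolic genes.

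Maf itself checks the genotype. Its log2 ratios were -2.22, -2.36 and -1.92 in the c-Maf KO samples and 1.92, 1.98 and 2.03 in the WT samples, so the level was 17.7-fold higher in WT (log2 difference -4.14, limma adjusted p = 0.000561). Here and below a log2 ratio sets a sample against the median of that probe over the 6 samples, and a log2 difference is the c-Maf KO mean minus the WT mean. Between 49.0% and 50.5% of the probes exceeded background clearly on c-Maf KO arrays, and between 48.9% and 49.8% on WT arrays, with none saturated. The slide held c-Maf KO arrays in its second row and WT arrays in its first, and the effect of row cannot be told apart from that of genotype. Of 10 macrophage markers 9 were measured, and Cd163 was not above background. Of these 9, 8 had negative differences, with a median of -0.19, and none passed the test. Every c-Maf KO sample lay below every WT sample for Adgre1, Mrc1, Cd14 and Fcgr1 (8.86% of all genes), and above for Lyz2 (11.1% of all genes). The mean of the 9 was -0.0058, -0.20 and -0.086 in c-Maf KO replicates 1 to 3 and 0.023, 0.065 and 0.019 in WT replicates 1 to 3. Neutrophil markers were measured for 8 of 8, with 7 negative differences, a median of -0.46 and overlapping samples in all 8. Markers of stromal cells and fibroblasts were higher in c-Maf KO, though none passed the test. Of the 12 listed, 11 were measured and Lum was not above background. All 11 had positive differences, and in 8 every c-Maf KO sample lay above every WT sample (11.1% of all genes did so). Their mean log2 ratio was 0.20, 0.17 and 0.50 in c-Maf KO replicates 1 to 3 and -0.10, -0.95 and -0.71 in WT replicates 1 to 3. The part of these 3 marker lists in the results on metabolic genes was not tested.

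The RNA levels of the pathway differed little between the genotypes. No member passed limma's test at an adjusted p under 0.05 over all genes, where 7 of 20256 genes did (0.0346%), and the smallest adjusted p among the members was 0.101, for the aldolase gene Aldoc. The log2 differences ran from -0.30 for the enolase gene Eno2 to 0.56 for Aldoc, and 18 of 31 members lay within 0.1 of zero. With the 95% interval, 18 members lay wholly within 0.3 of zero. The differences leaned to the positive side: 24 of 31 were above zero (77.4%, against 50.7% of all genes tested), with a median of 0.038 against 0.0018 for all genes. In 9 members every c-Maf KO sample lay above every WT sample (11.1% of all genes did so), in 1 member every c-Maf KO sample lay below (8.86% of all genes), and in 21 the samples overlapped. An unadjusted p under 0.05 was found for 8 members, and for 12.6% of all genes.

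**Figure D1:**
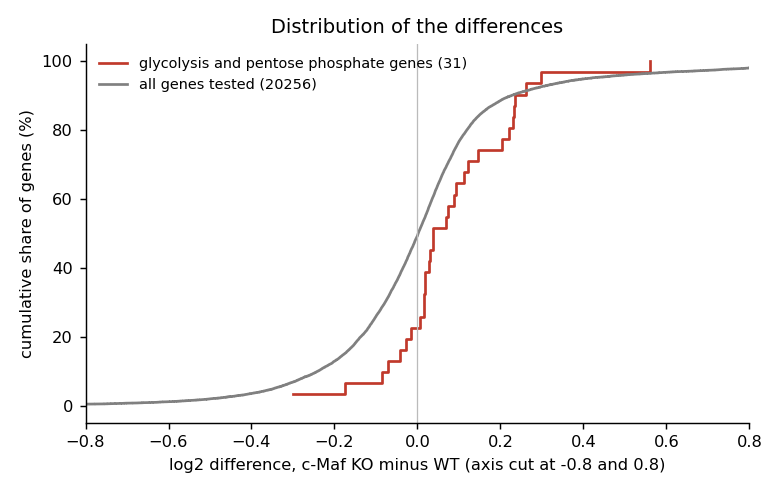
Cumulative share of genes (vertical axis, in percent) at or below each log2 difference, c-Maf KO minus WT (horizontal axis), for the 31 glycolysis and pentose phosphate genes in red and all 20256 genes tested in grey. The red line lies to the right of the grey one over most of the range, with a median of 0.038 against 0.0018, and meets it beyond 0.3.

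The lean to positive values also held among bright probes in general, and 15 of the members belong to the brightest 10% of genes. In those 2026 genes the median difference was 0.025, 62.5% were positive, and 8.93% had c-Maf KO samples wholly above the WT samples. The part of signal strength in the members' lean was not tested.

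Setting limma's variance estimate to follow the mean signal and to resist outlying genes raised the number of calls to 135 of all genes (0.666%). Aldoc was then called, with an adjusted p of 0.00399. It was the only member called under that setting, and Slc2a1 and Pgd came next with adjusted p of 0.068 and 0.0987.

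The regions upstream of the 6 members with the largest differences among those whose samples did not overlap are shown, because binding of transcription factors near a start is one known way in which RNA levels are set. They are 250 bases long, end just before the annotated start, and were taken from RefSeq on GRCm38.p6. Capitals mark the core of the HIF-1 binding site, ACGTG or GCGTG, read on both strands, so that CACGT and CACGC also count. Aldoc encodes the aldolase C isozyme, best known from brain, and its region was chr11:78322823-78323072 on the plus strand, before the first of 2 annotated starts. Eno2 encodes the neuronal enolase isozyme, with the region chr6:124769674-124769923 on the minus strand. Slc2a1 encodes the glucose transporter GLUT1, with the region chr4:119108495-119108744 on the plus strand. Slc16a3 encodes the lactate exporter MCT4, with the region chr11:120948817-120949066 on the plus strand. Rpia encodes ribose phosphate isomerase, with the region chr6:70792176-70792425 on the minus strand. Pfkl encodes the liver isozyme of phosphofructokinase, with the region chr10:78009808-78010057 on the minus strand.
Aldoc: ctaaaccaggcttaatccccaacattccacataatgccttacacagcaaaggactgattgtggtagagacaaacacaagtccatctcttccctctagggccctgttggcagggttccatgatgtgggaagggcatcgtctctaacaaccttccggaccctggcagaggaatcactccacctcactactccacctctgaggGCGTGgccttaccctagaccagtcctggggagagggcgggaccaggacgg
Eno2: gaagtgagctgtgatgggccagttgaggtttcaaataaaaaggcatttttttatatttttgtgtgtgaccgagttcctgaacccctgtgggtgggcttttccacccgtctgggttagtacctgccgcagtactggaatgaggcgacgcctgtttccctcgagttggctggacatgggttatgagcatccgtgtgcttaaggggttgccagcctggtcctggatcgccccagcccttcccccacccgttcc
Slc2a1: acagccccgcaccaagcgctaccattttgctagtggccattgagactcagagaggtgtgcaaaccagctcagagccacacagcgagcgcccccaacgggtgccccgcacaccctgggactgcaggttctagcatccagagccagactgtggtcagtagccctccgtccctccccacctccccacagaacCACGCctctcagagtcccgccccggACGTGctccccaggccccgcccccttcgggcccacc
Slc16a3: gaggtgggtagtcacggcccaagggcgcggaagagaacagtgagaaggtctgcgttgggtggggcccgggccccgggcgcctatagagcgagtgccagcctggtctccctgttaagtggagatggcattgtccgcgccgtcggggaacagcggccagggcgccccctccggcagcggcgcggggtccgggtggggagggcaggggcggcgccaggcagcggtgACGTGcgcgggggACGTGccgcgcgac
Rpia: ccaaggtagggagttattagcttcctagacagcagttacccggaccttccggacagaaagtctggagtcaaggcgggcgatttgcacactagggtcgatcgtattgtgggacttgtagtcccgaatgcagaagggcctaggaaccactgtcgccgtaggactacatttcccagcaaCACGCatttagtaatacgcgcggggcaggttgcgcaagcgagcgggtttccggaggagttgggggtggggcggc
Pfkl: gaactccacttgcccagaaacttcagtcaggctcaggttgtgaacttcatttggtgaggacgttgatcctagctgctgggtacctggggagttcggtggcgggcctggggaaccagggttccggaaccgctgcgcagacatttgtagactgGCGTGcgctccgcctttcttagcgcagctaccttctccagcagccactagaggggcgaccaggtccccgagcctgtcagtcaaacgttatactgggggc

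Slc2a1 and Slc16a3 held 2 copies of the core each, Aldoc, Rpia and Pfkl held 1 each, and Eno2 held none. The last base of the match nearest to the start lay 10 bases upstream in Slc16a3, 32 in Slc2a1, 46 in Aldoc, 70 in Rpia and 95 in Pfkl. Promoter sequences were found for 30 of the 31 members, Slc2a3 being the one with no match. Before the first annotated start, 23 of 30 members held the core (76.7%), against 38.6% of all 32851 promoters in the table. Before at least 1 annotated start, 26 of 30 members held it, a count that was not made for all genes. All 9 members whose c-Maf KO samples lay above the WT samples were among them, and so were most of the other members. These letters are rich in CpG, and the members' regions were too: they had a median GC content of 59.4% and a median of 14.5 CpG, against 52.4% and 6 for all promoters, and its part in the share of matches was not tested. For the Maf family, the half-site TGCTGAC was found in 0 of 30 members before the first start, against 3.81% of all promoters. The palindromic full sites T-MARE and C-MARE were found in 0 members, and in 1 and 0 of all promoters. The E-box CACGTG is read by MYC and other factors and contains the HIF-1 core. Before the first start it was in 2 of 30 members (6.67%, against 6.02% of all), and before at least 1 start in 3. The AP-1 site TGACTCA is contained in the T-MARE. Before the first start it was in 0 of 30 members (4.46% of all), and before at least 1 start in 1. A match is a description of letters, and a missing match says nothing of a factor outside these windows.

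Uptake of glucose was represented by Slc2a1 and Slc2a3, and Slc2a6 is a further member of their transporter family. Slc2a1, whose promoter is shown above, was measured by a probe at chr4:118809864-118809923 (mm9, as are all probe positions). Its log2 ratios were 0.22, 0.24 and 0.07 in c-Maf KO and -0.16, -0.07 and -0.13 in WT. All c-Maf KO samples lay above all WT samples, c-Maf KO replicate 3 being the lowest of its group. The mean was 0.18 ± 0.09 in c-Maf KO and -0.12 ± 0.05 in WT (SD, n = 3 each), a log2 difference of 0.30 (SE 0.07) or 1.23-fold, with an adjusted p of 0.227. Slc2a3, the high-affinity transporter GLUT3, had a log2 difference of -0.17 (95% interval -0.37 to 0.02, adjusted p = 0.444) with overlapping samples. Slc2a6, a transporter of myeloid cells found on lysosomes, had the widest scatter within c-Maf KO, with an SD of 0.24 and a difference of -0.02.

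**Figure D2:**
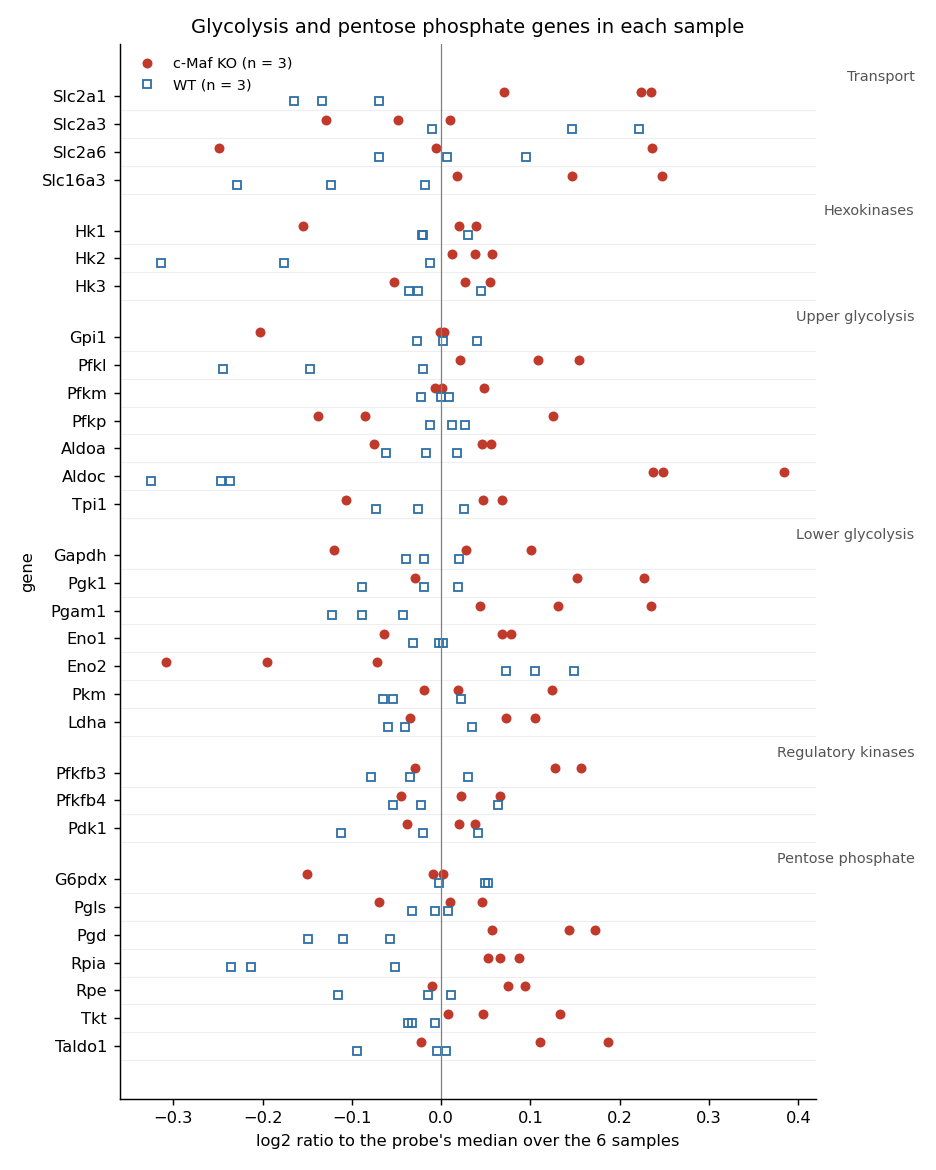
Log2 ratio to the probe's median over the 6 samples (horizontal axis) for each of the 31 genes (vertical axis, grouped by role), with c-Maf KO samples as red circles and WT samples as blue open squares (3 each). Aldoc and Slc2a1 show c-Maf KO samples wholly to the right of WT, Eno2 shows them to the left, and 21 genes overlap.

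Trapping of glucose by hexokinases showed small differences. Hk2, the hexokinase that hypoxia and growth factors are known to induce, measured 0.04, 0.06 and 0.01 in c-Maf KO and -0.31, -0.01 and -0.18 in WT. The groups did not overlap, but WT replicate 2 lay within 0.1 of the c-Maf KO samples, and the difference was 0.20 (SE 0.09, adjusted p = 0.416). Hk1, the housekeeping form, had 0.02, 0.04 and -0.15 in c-Maf KO and -0.02, 0.03 and -0.02 in WT. Its samples overlapped, and the difference was -0.03 (95% interval -0.20 to 0.15, adjusted p = 0.895). Hk3, the form typical of myeloid cells, had 0.05, 0.03 and -0.05 in c-Maf KO and -0.03, 0.04 and -0.04 in WT. It overlapped as well, with a difference of 0.01 (95% interval -0.13 to 0.16, adjusted p = 0.934).

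In the upper part of glycolysis, 5 of 7 members had positive differences with a median of 0.03, and the only sizeable ones were at Aldoc and Pfkl. Aldoc (probe chr11:78140198-78140257) splits fructose bisphosphate into triose phosphates. Its log2 ratios were 0.38, 0.24 and 0.25 in c-Maf KO and -0.32, -0.25 and -0.24 in WT. The groups were separated by a gap wider than the spread within each, and no single sample carried the difference. The mean was 0.29 ± 0.08 in c-Maf KO and -0.27 ± 0.05 in WT (SD, n = 3 each), a difference of 0.56 (SE 0.07, 95% interval 0.40 to 0.72) or 1.47-fold, with an adjusted p of 0.101.

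Aldoa, the aldolase of most cells, stayed near zero beside it. Its log2 ratios were 0.05, 0.06 and -0.08 in c-Maf KO and -0.02, 0.02 and -0.06 in WT, a difference of 0.03 (95% interval -0.13 to 0.18, adjusted p = 0.870). Pfkl, which forms fructose bisphosphate at the committed step, had 0.11, 0.02 and 0.15 in c-Maf KO and -0.24, -0.02 and -0.15 in WT. Its groups did not overlap, although c-Maf KO replicate 2 and WT replicate 2 lay close together, and the difference was 0.23 (SE 0.08, adjusted p = 0.328). The muscle and platelet forms Pfkm and Pfkp had differences of 0.02 and -0.04. Gpi1, which converts glucose phosphate to fructose phosphate, and Tpi1, which interconverts the triose phosphates, had -0.07 and 0.03. All 4 overlapped, with adjusted p between 0.716 and 0.898.

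In the lower part, 6 of 7 members had positive differences with a median of 0.07. Gapdh, the dehydrogenase often used as a reference gene, measured 0.03, 0.10 and -0.12 in c-Maf KO and 0.02, -0.02 and -0.04 in WT. The c-Maf KO samples held both the highest and the lowest value, and the difference was 0.02 (95% interval -0.17 to 0.20, adjusted p = 0.943). Pgam1, the phosphoglycerate mutase (probe chr19:41992898-41992957), had 0.24, 0.13 and 0.04 in c-Maf KO and -0.09, -0.04 and -0.12 in WT. Its groups did not overlap, and the difference was 0.22 (SE 0.07, adjusted p = 0.292).

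Eno2 was the member whose c-Maf KO samples all lay below the WT samples. Its log2 ratios were -0.07, -0.31 and -0.20 in c-Maf KO and 0.07, 0.15 and 0.10 in WT (probe chr6:124710388-124710447). The mean was -0.19 ± 0.12 in c-Maf KO and 0.11 ± 0.04 in WT (SD, n = 3 each), a difference of -0.30 (SE 0.08, adjusted p = 0.239). With limma's variance estimate set to follow the mean signal and to resist outlying genes, the adjusted p of Eno2 was 0.376. The ubiquitous enolase Eno1 had a difference of 0.04 with overlapping samples (95% interval -0.12 to 0.19). Pgk1, the ATP-forming phosphoglycerate kinase, had 0.15 (adjusted p = 0.517) and also overlapped.

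Pkm, pyruvate kinase, forms the pyruvate at the end of the pathway. The log2 ratios were 0.12, 0.02 and -0.02 in c-Maf KO and -0.06, 0.02 and -0.05 in WT, a difference of 0.07 (95% interval -0.08 to 0.23, adjusted p = 0.657) with overlapping samples. Ldha, lactate dehydrogenase A, had 0.07, 0.10 and -0.03 in c-Maf KO and -0.04, 0.03 and -0.06 in WT. These overlapped too, with a difference of 0.07 (95% interval -0.09 to 0.23, adjusted p = 0.677). Slc16a3, which exports the lactate (probe chr11:120820030-120820089), had 0.15, 0.25 and 0.02 in c-Maf KO and -0.23, -0.02 and -0.12 in WT. Its groups did not overlap but nearly met at c-Maf KO replicate 3 and WT replicate 2, and the difference was 0.26 (SE 0.09, adjusted p = 0.325).

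The regulatory kinases all had small positive differences and overlapping samples. Pfkfb3, which makes the allosteric activator of phosphofructokinase, had 0.11 (95% interval -0.07 to 0.29). Its relative Pfkfb4 had 0.02, and Pdk1, which blocks entry of pyruvate into the mitochondrial dehydrogenase, had 0.04.

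In the pentose phosphate pathway 6 of 7 members had positive differences, with a median of 0.09, and the oxidative and non-oxidative arms each held genes whose groups did not overlap. G6pdx, glucose phosphate dehydrogenase, is the first and rate-limiting enzyme. Its log2 ratios were 0.00, -0.01 and -0.15 in c-Maf KO and 0.00, 0.05 and 0.05 in WT, a difference of -0.09 (95% interval -0.25 to 0.07, adjusted p = 0.609). Pgd, phosphogluconate dehydrogenase, the second source of NADPH (probe chr4:148524293-148524352), had 0.17, 0.14 and 0.06 in c-Maf KO and -0.15, -0.06 and -0.11 in WT. The estimates for these dehydrogenases of the oxidative arm differed in sign, but neither passed the test and their contrast was not tested. G6pdx overlapped, whereas all Pgd values of c-Maf KO lay above those of WT, with a difference of 0.23 (SE 0.06, adjusted p = 0.251). Pgls, the lactonase that acts between them, had 0.01.

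Rpia, which makes the ribose phosphate for nucleotides (probe chr6:70716013-70716072), measured 0.07, 0.05 and 0.09 in c-Maf KO and -0.21, -0.24 and -0.05 in WT. The c-Maf KO samples were tightly grouped and lay above WT, with a difference of 0.24 (SE 0.07, adjusted p = 0.275). Tkt, transketolase, which returns pentoses to glycolysis, had 0.05, 0.13 and 0.01 in c-Maf KO and -0.04, -0.01 and -0.03 in WT. Its groups did not overlap, but the lowest c-Maf KO and the highest WT sample nearly met, and the difference was 0.09 (SE 0.06, adjusted p = 0.569). Taldo1, transaldolase, and Rpe, the epimerase, had 0.12 and 0.09 with overlapping samples.

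**Figure D3:**
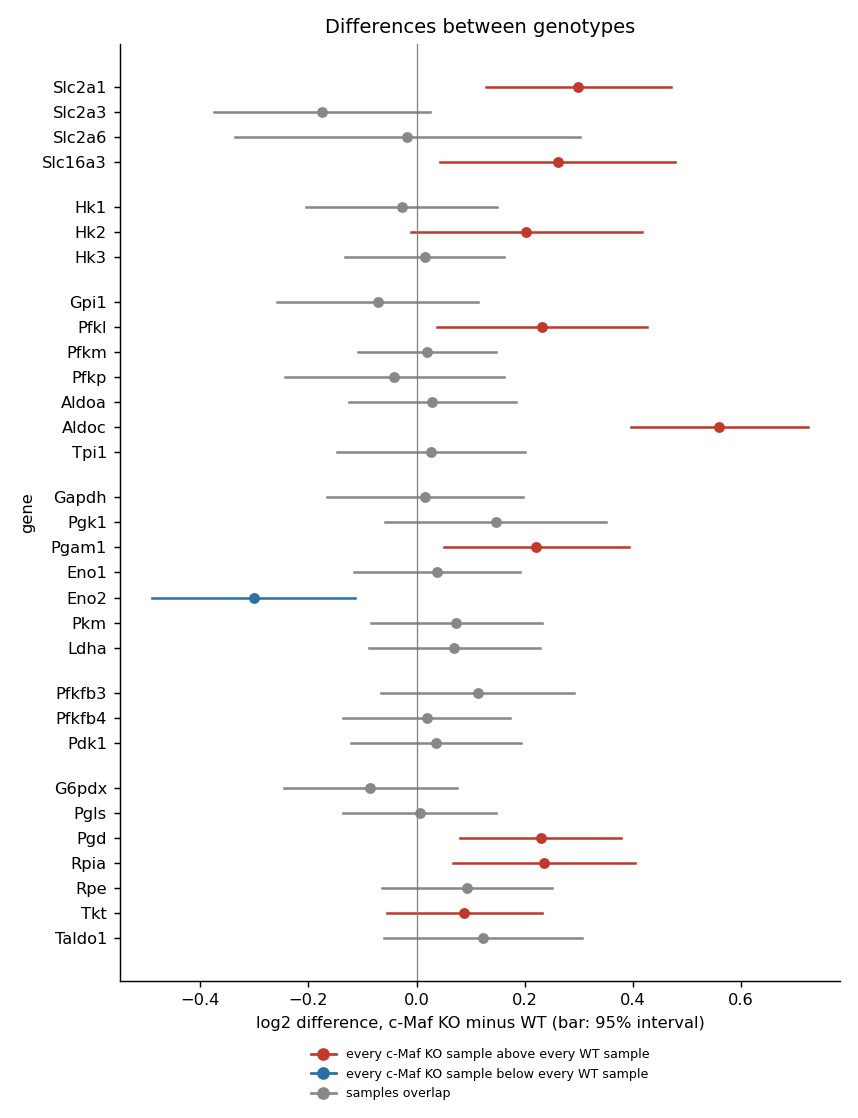
Log2 difference, c-Maf KO minus WT, with its 95% interval from limma (horizontal axis) for each gene (vertical axis, in the order of the pathway). Genes with every c-Maf KO sample above every WT sample are red (9 genes), Eno2 with every c-Maf KO sample below is blue, and the 21 that overlap are grey.

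Where the members include isozymes of a single step or transporters of the Slc2a family, pairs were compared within each sample. This cancels a shift common to a sample. The log2 ratio of Aldoc minus that of Aldoa was 0.34, 0.18 and 0.32 in c-Maf KO and -0.31, -0.26 and -0.18 in WT, a difference of 0.53. Slc2a1 minus Slc2a3 was 0.27, 0.36 and 0.06 in c-Maf KO and -0.15, -0.29 and -0.28 in WT, a difference of 0.47. Of the 11 pairs that the members allow, the groups did not overlap in 7. Besides the pairs above these were Slc2a1 minus Slc2a6 with a difference of 0.32, Hk2 minus Hk1 with 0.23, Hk2 minus Hk3 with 0.19, Pfkl minus Pfkm with 0.21 and Eno2 minus Eno1 with -0.34. In the other 4 pairs the groups overlapped, and Pfkl minus Pfkp was among them at 0.25, -0.10 and 0.24 in c-Maf KO and -0.27, -0.03 and -0.13 in WT. Each pair without overlap holds a member whose own samples did not overlap, and Slc2a1 and Hk2 recur among these pairs. The share without overlap was not counted for other pairs of genes, so the pairs are a description and were not tested.

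Probes of a single gene did not always give the same difference. Of the 11 members with several probes above background, 4 had probes that differed in sign. In 8 of the 11 every other probe had a larger difference than the brightest one, which 42.6% of the 5574 such genes on the array did. At Ldha, the dimmer probes had differences of 0.29 and 0.20, against 0.07 for the brightest. The probe at chr7:54107294-54107353 measured 0.18, 0.19 and 0.08 in c-Maf KO and -0.12, -0.08 and -0.21 in WT, with no overlap.

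Hk1 had 0.20 and 0.18 at its dimmer probes, against -0.03 at the brightest. The probe at chr10:61732717-61732776 had 0.06, 0.07 and 0.09 in c-Maf KO and -0.11, -0.06 and -0.14 in WT, with no overlap. The probes of Hk1 that did and did not overlap lay within a single stretch of the chromosome, and which exon or transcript each reads was not looked up. Gapdh had 8 probes with differences of -0.05 to 0.12. The array file places 2 of them, the brightest included, on chromosome 7 and 6 on chromosome 6, where the gene lies, so the brightest may read a near-identical copy and its level is uncertain. When all probes of a gene were averaged in place of taking the brightest, the members' median difference was 0.07, 26 of 31 were positive and 12 had c-Maf KO samples wholly above WT (10.9% of all genes).

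**Figure D4:**
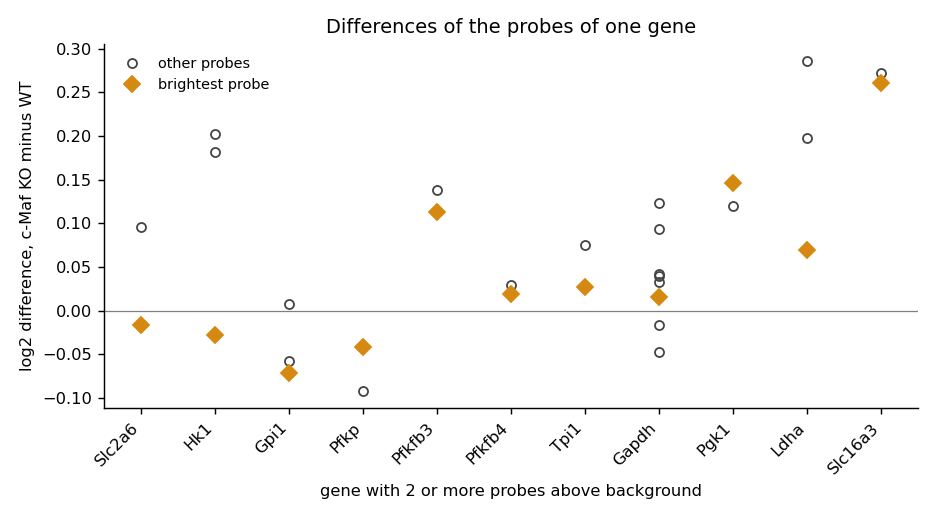
Log2 difference, c-Maf KO minus WT (vertical axis), of every probe above background for the 11 genes with 2 or more such probes (horizontal axis). The brightest probe (orange diamond) lies below all other probes (open circles) of its gene in 8 of 11 genes, Ldha and Hk1 included.

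Single samples stood out across the members. c-Maf KO replicate 3 was the lowest of its group in 22 of 31 members (71.0%, against 48.0% of all genes and 80.2% of the brightest 10%). WT replicate 2 was the highest of its group in 20 (64.5%, against 35.1% and 47.2%). The mean log2 ratio of the 31 genes was 0.08, 0.07 and -0.02 in c-Maf KO replicates 1 to 3 and -0.06, -0.01 and -0.05 in WT replicates 1 to 3, so c-Maf KO replicate 3 lay below WT replicate 2. Without c-Maf KO replicate 3 the median difference was 0.09 and 18 members had c-Maf KO samples wholly above WT (23.6% of all genes with those 5 samples). The array of that sample had the highest 75th percentile of intensity, 494.5, against 410.8 to 447.8 for the other 4. The part of the array in its values was not tested.

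c-Maf KO replicate 3 had the highest stromal mean of its group and the lowest metabolic mean. WT replicate 1 had the highest stromal mean of WT, and it was the lowest of WT in 13 of 31 members, where WT replicate 2 was lowest in 4 and WT replicate 3 in 14. Among the 9 members whose c-Maf KO samples lay above WT, WT replicate 1 was lowest in 7, WT replicate 2 in Rpia and WT replicate 3 in Pgam1. Within c-Maf KO, Pfkl and Rpia among these 9 had the order of the stromal mean, replicate 3 being highest and replicate 2 lowest. The rest of the 9 did not have that order. Replicates 1 and 2 lay close in that mean, at 0.20 and 0.17. The median of the stromal markers was 0.16, 0.28 and 0.51 in c-Maf KO replicates 1 to 3. None of the 9 had the order of that median. The part of stromal cells in these values was not tested.

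**Figure D5:**
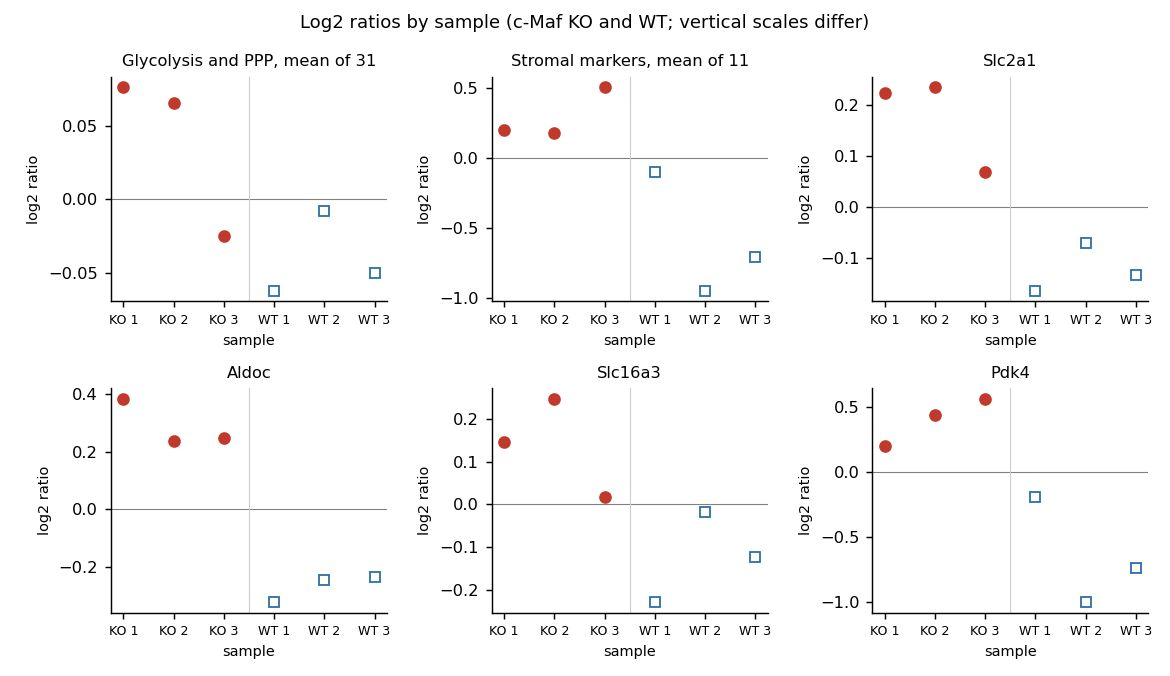
Log2 ratio (vertical axes, which differ in scale) in each of the 6 samples (horizontal axes), c-Maf KO as red circles and WT as blue open squares, for the means of the 31 glycolysis and pentose phosphate genes and of 11 stromal markers and for 4 genes. Within WT, Pdk4 has the sample order of the stromal mean, replicate 1 being highest, and Slc2a1, Slc16a3 and Aldoc do not. Within c-Maf KO none of the 4 genes has the order of the stromal mean, in which replicates 1 and 2 lie close (0.20 and 0.17). The median of the stromal markers is 0.16, 0.28 and 0.51 in c-Maf KO replicates 1 to 3. Pdk4 has the order of that median, and Slc2a1, Slc16a3 and Aldoc do not. The part of stromal cells in these values was not tested.

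Further genes of carbohydrate metabolism came from lists set beside the members, and none of them passed the test over all genes. For comparison with the counts below, 11.1% of all genes tested lay wholly above WT and 8.86% wholly below. Other isozymes and transporters outside the members were above background for 17 of 23, of which 13 had positive differences with a median of 0.06, 4 with c-Maf KO samples wholly above WT and 2 wholly below. Among those, Pgm2l1, which makes glucose bisphosphate, had 0.43 (adjusted p = 0.272). The differences of the 17 ran from -0.825 to 0.43, with a mean of 0.022. Other genes of pentose metabolism had 9 of 11 above background, 7 positive, a median of 0.08 and 3 wholly above.

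Entry of pyruvate into mitochondria had 13 of 13 above background, 10 positive, a median of 0.09 and 4 wholly above (11.1% of all genes). Pdk4, a kinase that switches pyruvate dehydrogenase off, had 0.20, 0.44 and 0.56 in c-Maf KO and -0.20, -1.0 and -0.74 in WT, a difference of 1.04 (SE 0.22, adjusted p = 0.192). Pcx, pyruvate carboxylase, had 0.33 (adjusted p = 0.349). Within each genotype Pdk4 and Pcx had the sample order of the median of the stromal markers. The part of stromal cells in their values was not tested.

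Gluconeogenesis was the list with no positive difference: 5 of 7 genes were above background, all 5 were negative, and the median was -0.11. Their differences ran from -0.50 to -0.07. G6pc, the glucose phosphatase of liver, had -0.20, -0.14 and -0.46 in c-Maf KO and 0.20, 0.14 and 0.18 in WT, a difference of -0.44 (SE 0.10, adjusted p = 0.199). Its probe was above background on 1 of 2 c-Maf KO arrays and 3 of 3 WT arrays, so it was measured near its lower limit. Genes of glycogen and hexosamine metabolism had 14 of 14 above background, 10 positive, a median of 0.04 and 3 wholly above (11.1% of all genes).

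Factors that control glycolysis had median differences near zero in RNA. Of the HIF-1 subunits and their regulators, 7 of 8 were above background, with 3 positive, a median of -0.02 and overlapping samples in all 7. Their differences ran from -0.16 to 0.24. Of other regulators of glycolysis, 13 of 14 were above background, with 6 positive and a median of -0.01. Their differences ran from -0.22 to 0.11, and 2 had c-Maf KO samples wholly below WT (8.86% of all genes).

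HIF-1 targets outside glycolysis had 18 of 20 above background, 13 positive and a median of 0.13. Of these 18, 7 lay wholly above WT (11.1% of all genes) and 1 wholly below (8.86%). P4ha2, a collagen prolyl hydroxylase, had 0.57 (adjusted p = 0.277), and Ddit4, a stress-induced inhibitor of mTORC1, had 0.46 (adjusted p = 0.379). Hmox1, haem oxygenase, had 0.52, 0.15 and 0.15 in c-Maf KO and -0.25, -0.15 and -0.33 in WT, a difference of 0.52 (SE 0.12, adjusted p = 0.227). P4ha2 is also made by stromal cells, whose markers were higher in the same c-Maf KO samples, and their part in its values was not tested.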

How the data were processed

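RNA of 3 c-Maf KO and 3 WT samples was measured on 1-colour Agilent arrays. The scanner intensities of 5 arrays were made by the authors: the submitters' processing notes name Agilent Feature Extraction version 10.7.3.1. Detrending was on and surrogates were allowed, without background correction, per the file headers. For c-Maf KO replicate 1 no scanner intensities were used here. The authors' deposited value table holds all 6 samples and was read as a linear ratio to each probe's median: set against each array's signals over their 75th percentile, its log2 values had slopes of 0.9993 to 0.9998 and r of 0.9996 to 0.9998. The column medians of its log2 ratios were -0.057, 0.068 and -0.054 in c-Maf KO and 0.024, 0.0070 and -0.0088 in WT, and the authors' treatment of low values was not given in the sources used here.

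Probes well above background on 2 or more arrays (28279) were used, and a gene was represented by its brightest kept probe (20256 genes). Control probes were left out. Flagged spots were left out of the background call and of the fits on the scanner arrays. The deposited values and the signal that picked the brightest probe were used without that step. Names were updated through RefSeq accessions for 28026 probes, and probe positions are those of the files (mm9). Differences in log2 ratio were tested by limma (version 3.58.1, R version 4.3.3, lmFit, eBayes, Benjamini-Hochberg adjusted p under 0.05 over all genes), a procedure tested on simulated data. The number of arrays limits the precision.

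The members and lists were chosen with earlier results of these data known. Values in every sample are given for members called or with samples that do not overlap and for Gapdh, Ldha, Pkm, Hk1, Hk2, Hk3, G6pdx and Tkt; other list genes are named where their samples do not overlap and the log2 difference is 0.3 or more in size, at most 4 per list, and a gene that this rule takes is not reported here. Aldoa and the second probes of Ldha and Hk1 were added after their values were seen. Alternatives were the 5 scanner arrays, normexp with an offset of 50, quantile normalization, centring, other filters, the mean of probes, trend and robust eBayes (statmod version 1.5.0), array weights, a replicate block, WT replicates 1 and 3 averaged because their file names share a tag, each replicate left out, and a threshold of 0.1. All scanner arrays lay on the same slide and scan, so no block for these could be fitted.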

Additional observations from a re-analysis of the deposited data

How the results depend on the processing

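With trend and robust eBayes 1 of the 31 genes, Aldoc, was called, and under the other alternatives none was. The number of genes called over the whole array was 7, and it was 21 with normexp correction, 3 after quantile normalization, 2 without a filter on dim probes, 22 with probes above background on all 5 arrays, 135 with trend and robust eBayes, 2 with WT replicates 1 and 3 averaged, 25 at an adjusted p under 0.1, and 2 to 99 when a replicate was left out (99 without WT replicate 1). With the replicate number as a block it was 3, and no member was called. Same-numbered samples did not deviate together from their group means (r = -0.0285, -0.0611 and 0.0388). Samples made together need not deviate together, so whether the numbers pair the samples stays unknown. Aldoc kept differences of 0.51 to 0.59, with adjusted p of 0.00399 to 0.298. The members' median difference of 0.038 was 0.030 to 0.0916 when a replicate was left out (0.0916 without c-Maf KO replicate 3). Counts of members by direction were tried under settings chosen after seeing the data. Members wholly above WT were 9 to 18 when a replicate was left out, against 14.0% to 23.6% of all genes (18 and 23.6% without c-Maf KO replicate 3). Members wholly below were 1 in the main setting (8.86% of all genes), 2 on the 5 scanner arrays (16.1%), 2 after quantile normalization (9.58%), 2 after centring (9.72%), and 1 to 3 when a replicate was left out, against 13.1% to 15.6% (3 and 14.8% without WT replicate 1). Of the 31 genes, 22 kept their sign under all 17 alternatives. The 9 that did not were all near zero. With the probes of a gene averaged, Slc2a6 was 0.0393 and Hk1 0.1186; with array weights, Slc2a6 was 0.0688 and Pfkp 0.0116. On the 5 scanner arrays Hk3 was -0.0095, Pfkp 0.0098, Pfkfb4 -0.0084, Tpi1 -0.0074 and Pgls -0.0032, and with normexp Hk3 was -0.0083 and Pfkp 0.0263. When a replicate was left out, the difference ranged from -0.138 to 0.1045 for Slc2a6, -0.0631 to 0.0338 for Hk1, -0.0079 to 0.0461 for Hk3, -0.1204 to 0.0115 for Pfkp, -0.0068 to 0.0528 for Pfkfb4, -0.0058 to 0.0818 for Tpi1, -0.0331 to 0.0776 for Gapdh, -0.0045 to 0.0723 for Pdk1 and -0.0191 to 0.0385 for Pgls. The cause of these changes was not tested. With 3 samples a group, the SE of a member's difference was 0.052 to 0.13, which limits what could be detected.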
